A study of Mus musculus with 16 samples.

Results

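The 8 genes described here encode parts of the IL-17 axis in skin: the IL-23 subunit gene Il23a and the IL-23 receptor gene Il23r, the cytokine genes Il17c and Il17f, the receptor genes Il17ra and Il17rc, the chemokine gene Ccl20 and its receptor gene Ccr6. They were chosen by symbol from the 45777 genes listed in the deposited mouse table, and all 8 were present. The measurements are polyA RNA sequencing of ear skin from wild-type C57BL/6 mice whose ears received 50 µM MC903 in 20 µL of ethanol daily for 10 days. MC903 (calcipotriol) is an analogue of vitamin D and produces inflammation resembling atopic dermatitis. All 6 libraries used here carry this treatment: 3 come from mice also given anti-OSM, which binds the cytokine oncostatin M, as 20 µg intradermally on alternate days. The other 3 come from mice given anti-Ly6G, which binds a surface protein of neutrophils, as 200 µg intraperitoneally on 3 occasions: 2 days ahead of MC903, then 1 day and 4 days later. The series also has 5 control and 5 MC903 libraries, which were not analysed here. Antibody, dose, route and schedule therefore differ together between the groups, no isotype antibody is named for them, and these differences cannot be told apart. The labels used here do not say that each replicate is another mouse, and the p-values then describe only how these libraries vary. Total counts were 52163179 to 64122588 reads per library, which put a floor of 3 counts at 0.0466 to 0.0565 CPM (counts scaled to library size). The basal keratin gene Krt14, a defining marker of epidermis, was abundant in every library, at 5586 to 10039 TPM (a level that is scaled to transcript length and library size).

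IL-23, a dimer of the p19 protein (Il23a) and the p40 protein (Il12b), is made by dendritic cells and macrophages and maintains lymphocytes that produce IL-17, which in mouse skin are chiefly gamma delta T cells. IL-17A and IL-17F bind a receptor built of IL-17RA and IL-17RC on keratinocytes and fibroblasts, while IL-17C, made by epithelial cells, uses IL-17RA with IL-17RE. Among the genes these receptors induce is Ccl20, whose product attracts cells that carry CCR6: type 17 lymphocytes, B cells and some dendritic cells.

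The chemokine and its receptor differed in opposite directions. Ccl20 was lower with anti-OSM, at 6.65 ± 0.925 TPM against 17.4 ± 7.96 with anti-Ly6G (mean ± SD, n = 3 each), while Ccr6 was higher, at 4.16 ± 0.734 against 2.52 ± 0.340 TPM. The IL-17 receptor genes Il17ra and Il17rc, the most abundant of the 8, did not pass the test, nor did Il23a and Il23r. Il17c and Il17f were too low to be tested. In edgeR's quasi-likelihood test over 19915 genes, at a Benjamini-Hochberg adjusted p under 0.05, 1 of the 6 members tested was higher with anti-OSM, 1 was lower and 4 did not pass. Among all genes tested 12.1% passed, 5.81% higher and 6.27% lower. These shares rest on all 6 libraries: the 1157 genes higher and 1249 lower became 238 to 577 and 418 to 737 when any 1 library other than anti-Ly6G replicate 3 was left out, with the fewest higher without anti-OSM replicate 3 and the fewest lower without anti-OSM replicate 1. With limma, 732 and 735 were higher at the 2 pseudocounts. The median log2 fold change (anti-OSM over anti-Ly6G, as throughout) was 0.11 over the 6 tested members and 0.01 over all genes tested. Both calls lay close to the threshold and both were lost in part of the alternative settings.

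**Figure D1:**
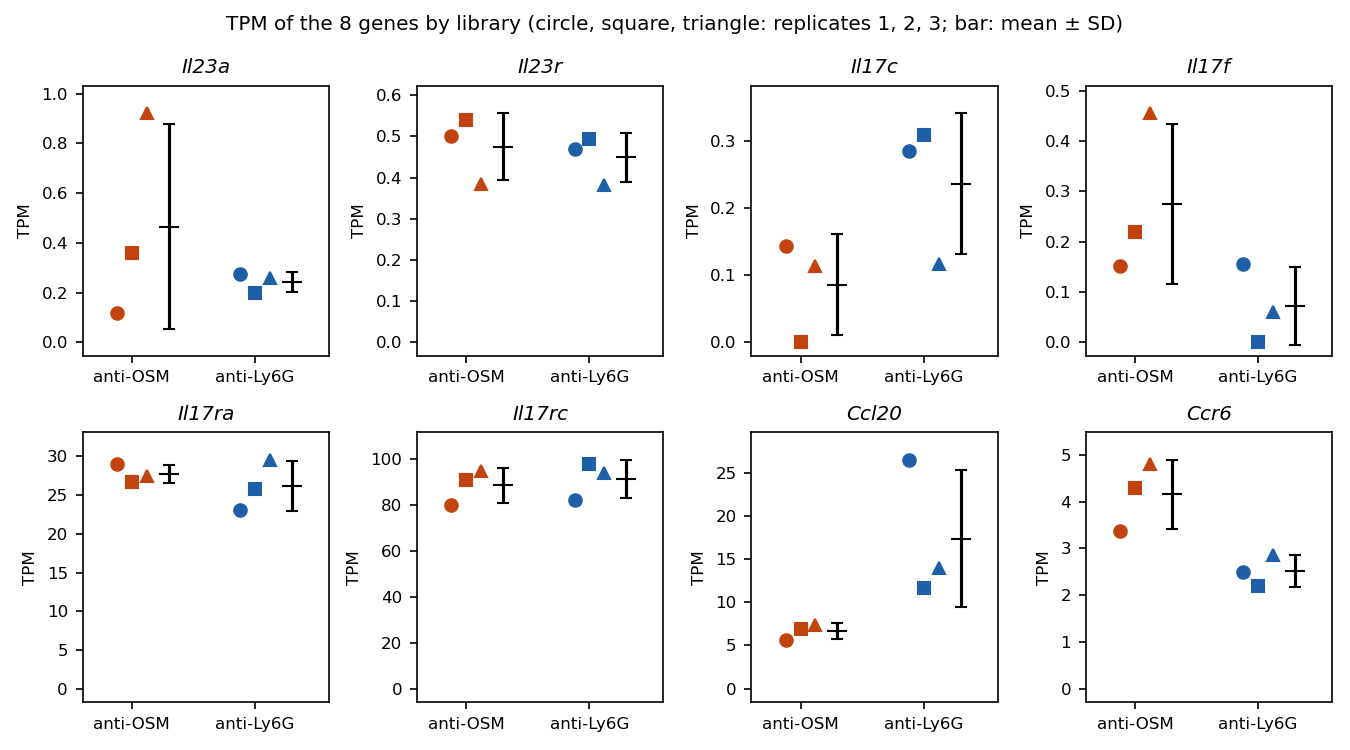
Level of each of the 8 genes in TPM (vertical axes, a separate scale per gene) in the 3 anti-OSM and 3 anti-Ly6G libraries; each symbol is 1 library and the bar gives the mean ± SD. Ccl20 and Ccr6 are the genes whose groups do not overlap, with Ccl20 at 5.61 to 7.39 TPM under anti-OSM against 11.7 to 26.5 under anti-Ly6G. By CPM the groups did not overlap in 35.0% of all tested genes either, so this separation does not single them out.

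On the TPM scale, which allows for transcript length, the mean level of the 8 genes over the 6 libraries ran from 0.161 to 90.1. Il17rc was highest, at 80.2 to 98.0 TPM over the 6 libraries, above 91.4% of tested genes by its mean. Il17ra followed at 23.1 to 29.5 TPM, with no overlap with Il17rc. The range of Ccl20, 5.61 to 26.5 TPM, overlapped that of Il17ra in anti-Ly6G replicate 1 alone. Ccr6, at 2.19 to 4.81 TPM, lay below Ccl20 in every library. Then came Il23r at 0.382 to 0.540 TPM, Il23a at 0.116 to 0.921, Il17f at 0 to 0.455 and Il17c at 0 to 0.308, each overlapping its neighbour in this order. The receptor genes Il17ra and Il17rc were thus well covered, and the cytokine genes Il17c and Il17f had few reads.

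Ccl20 (gene ID 20297) lies on chromosome 1, 83116766 to 83119167, plus strand, GRCm38. Replicates 1, 2 and 3 stood at 5.61, 6.94 and 7.39 TPM under anti-OSM, against 26.5, 11.7 and 14.0 TPM under anti-Ly6G. Every anti-Ly6G library lay above every anti-OSM library, as held in 35.0% of all tested genes in one direction or the other (17.3% lower and 17.7% higher with anti-OSM), and replicate 1 stood well above the other two of its group. Its log2 fold change was -1.37 (SE 0.33, 95% interval -2.13 to -0.60, edgeR adjusted p = 0.0380), which is 2.58-fold higher with anti-Ly6G. Without anti-Ly6G replicate 1 the difference was smaller and still passed, at -0.90 (adjusted p = 0.0407). The call was lost without any 1 anti-OSM library (adjusted p = 0.120 without replicate 1, 0.106 without replicate 2 and 0.0982 without replicate 3) and with no filter on low counts (0.0522), within a range of 2.60e-04 to 0.120 over its 15 alternatives.

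Ccr6 (gene ID 12458) lies on chromosome 17, 8236041 to 8258519, plus strand. It stood at 3.36, 4.30 and 4.81 TPM under anti-OSM, against 2.49, 2.19 and 2.87 TPM under anti-Ly6G. The groups did not overlap, as held in 35.0% of all tested genes, and anti-OSM replicate 1 and anti-Ly6G replicate 3 were nearest to each other. The log2 fold change was 0.63 (SE 0.17, 95% interval 0.23 to 1.02, edgeR adjusted p = 0.0492), or 1.54-fold higher with anti-OSM. All 15 alternatives kept this direction, with values of 0.49 to 0.76 and adjusted p of 0.0203 to 0.174, and 7 of them passed. Leaving out a library ended the call for anti-OSM replicate 1 (adjusted p = 0.0550), 2 (0.127) and 3 (0.174) and for anti-Ly6G replicate 1 (0.144) and 2 (0.133), as did size factors by relative log expression (0.0512), a non-robust fit (0.0515) and the absence of a filter on low counts (0.0577).

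Within a library, the ratio of the chemokine gene to its receptor gene differed as follows. Ccl20 stood at 1.67, 1.62 and 1.54 times the TPM of Ccr6 under anti-OSM, against 10.6, 5.34 and 4.87 times under anti-Ly6G. The anti-OSM libraries were nearly alike, and the lowest anti-Ly6G library was still far above them. This separation restates the differences in the 2 genes, since neither overlapped between groups and they lay in opposite directions. The exact two-sided permutation p of the ratio, 0.1 and the smallest possible, was fixed by that and is no further support.

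The start regions of these 2 genes are shown because they are the members that passed. They are RefSeq sequences of GRCm38.p6, each from 250 bases before to 50 bases after an annotated start, and 6 of the 8 members had an entry. Both strands were searched for the NF-kB consensus, a STAT motif (TTCNNNGAA), an AP-1 motif (TGANTCA) and a ROR element (AGGTCA). Of 32851 such regions, 4.51%, 8.30%, 7.81% and 16.3% held at least 1 of them, in that order. Capitals mark matches.
Ccl20 chr1:83116516-83116815, plus strand: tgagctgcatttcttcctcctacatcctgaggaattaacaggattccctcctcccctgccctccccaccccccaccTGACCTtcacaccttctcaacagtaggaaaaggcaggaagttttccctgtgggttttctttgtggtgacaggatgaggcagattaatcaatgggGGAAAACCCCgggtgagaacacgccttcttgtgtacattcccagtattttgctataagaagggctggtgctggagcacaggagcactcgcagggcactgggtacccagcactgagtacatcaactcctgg
Ccr6 first start chr17:8235793-8236092, plus strand: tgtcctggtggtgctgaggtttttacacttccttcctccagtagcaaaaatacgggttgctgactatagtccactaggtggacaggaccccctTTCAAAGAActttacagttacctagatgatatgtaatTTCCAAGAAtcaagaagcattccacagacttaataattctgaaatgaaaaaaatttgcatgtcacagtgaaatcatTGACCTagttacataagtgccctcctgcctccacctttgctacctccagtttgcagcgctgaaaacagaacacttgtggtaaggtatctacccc
Ccr6 second start chr17:8242276-8242575, plus strand: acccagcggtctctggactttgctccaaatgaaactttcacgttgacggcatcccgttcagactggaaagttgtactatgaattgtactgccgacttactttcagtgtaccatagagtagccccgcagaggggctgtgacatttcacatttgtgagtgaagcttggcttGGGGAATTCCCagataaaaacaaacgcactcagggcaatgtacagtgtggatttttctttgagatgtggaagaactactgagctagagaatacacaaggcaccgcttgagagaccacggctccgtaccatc
The Ccl20 region held 1 NF-kB match that begins 80 bases before the start, on the minus strand, and 1 ROR element. The first Ccr6 region held 2 STAT matches and 1 ROR element. The second held NF-kB matches at 2 overlapping positions, 1 of which reads the same on both strands. A match is a description of the letters and not evidence of binding, and the counts do not say which Ccr6 start was used.

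Il23a (gene ID 83430, chromosome 10, 128296140 to 128298084, minus strand), which encodes the p19 chain that is particular to IL-23, varied more within the anti-OSM group than between groups. Read counts of 4, 15 and 36 under anti-OSM stood against 12, 8 and 11 under anti-Ly6G, or 0.116, 0.358 and 0.921 against 0.274, 0.196 and 0.259 TPM. The anti-OSM libraries held both the lowest and the highest value. Its estimate on the log2 scale, 0.93 (SE 0.65, 95% interval -0.56 to 2.43, adjusted p = 0.387), did not pass and was -0.01 without anti-OSM replicate 3. Il12b, which encodes the p40 chain shared by IL-23 and IL-12, stood at 0.315, 0.567 and 0.676 TPM under anti-OSM, against 0.300, 0.286 and 0.427 under anti-Ly6G. Its log2 fold change was 0.64 (95% interval -0.16 to 1.43, adjusted p = 0.266).

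Il23r (gene ID 209590, chromosome 6, 67422932 to 67491855, minus strand) encodes the chain that gives the receptor its specificity for IL-23. Read counts were 32, 39 and 27 under anti-OSM, against 36, 34 and 29 under anti-Ly6G, or 0.501, 0.540 and 0.385 against 0.470, 0.495 and 0.382 TPM. The groups covered almost the same range, and the log2 fold change was 0.11 (SE 0.26, 95% interval -0.48 to 0.69, adjusted p = 0.822). Its partner chain gene Il12rb1, named after its values were seen, had 0.04 (95% interval -0.34 to 0.43). Of the other subunit genes of this family, Ebi3, a subunit of IL-27, was higher with anti-OSM, at 5.86, 5.70 and 7.22 TPM against 2.74, 3.25 and 3.41 with anti-Ly6G (1.02, SE 0.17, adjusted p = 0.0107). Il12rb2, the IL-12 receptor chain of type 1 lymphocytes, was at 7.83, 10.9 and 16.8 TPM against 3.62, 4.04 and 8.45 (1.21, adjusted p = 0.0774), and Il12a had 1.15 (adjusted p = 0.109). Neither passed, nor did Il27, named after its values were seen (0.53, adjusted p = 0.676), whose groups overlapped. Of the 8 genes of this family tested, 1 was higher, 0 were lower and 7 did not pass, a share near the 12.1% of all tested genes that passed. The median log2 fold change of the family was 0.79. Settings under which 2 were higher include DESeq2, a non-robust fit and leaving out anti-Ly6G replicate 3.

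The cytokine genes Il17f and Il17c had few reads, from 0 to 16 counts per library. Il17f (gene ID 257630, chromosome 1, 20777146 to 20785274, minus strand), a product of type 17 lymphocytes, had read counts of 8, 8 and 16 under anti-OSM, against 10, 0 and 4 under anti-Ly6G. The groups overlapped, and with no filter on low counts it did not pass (edgeR adjusted p = 0.465). Il17c (gene ID 234836, chromosome 8, 122422020 to 122423639, plus strand), the epithelial member, had read counts of 3, 0 and 3 under anti-OSM, all at or under the floor, against 7, 7 and 3 under anti-Ly6G. The groups met at 3 counts, and it did not pass without the filter either (adjusted p = 0.536). No fold is given for these 2 genes, since a difference was not detectable at this depth.

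Il17a had 0 counts in all 6 libraries, which allows up to 0.0466 to 0.0565 CPM in a library, counting error only. Il17d and Il17b, members with less well known roles in skin, were the cytokine genes of the family with enough counts to test. Il17d was at 2.55, 2.18 and 3.04 TPM with anti-OSM against 2.02, 3.10 and 2.36 (0.09, adjusted p = 0.819), and Il17b had 0.45 (adjusted p = 0.492). Of the 6 cytokine genes, 2 were thus tested and 0 passed in edgeR, in DESeq2 or at an unadjusted p under 0.05.

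The IL-17 receptor genes did not pass, and the intervals of their fold changes were narrow. Il17ra (gene ID 16172, chromosome 6, 120463181 to 120483731, plus strand), the chain common to most IL-17 receptors, was at 29.0, 26.7 and 27.5 TPM under anti-OSM against 23.1, 25.8 and 29.5 under anti-Ly6G. The anti-Ly6G libraries spanned the whole anti-OSM range, and the log2 fold change was 0.11 (SE 0.08, 95% interval -0.08 to 0.30, adjusted p = 0.434). Il17rc (gene ID 171095, chromosome 6, 113471455 to 113483163, plus strand), the second chain of the receptor for IL-17A and IL-17F, was at 80.2, 91.2 and 94.7 against 82.2, 98.0 and 94.2 TPM. Replicate 1 was the lowest library in both groups, and the log2 fold change was -0.01 (SE 0.09, 95% interval -0.21 to 0.18, adjusted p = 0.935), with values of -0.08 to 0.06 over its alternatives.

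Il17rc exceeded Il17ra by 2.76, 3.41 and 3.45 times with anti-OSM and by 3.55, 3.80 and 3.19 times with anti-Ly6G (exact two-sided permutation p = 0.4). Il17re, the partner chain for IL-17C, was at 10.6, 12.1 and 10.2 against 11.6, 14.6 and 12.8 TPM, and differed by -0.22 on the log2 scale (95% interval -0.45 to 0.02, adjusted p = 0.204). Il17rb, the chain that binds IL-25, had -0.13 (adjusted p = 0.584) and Il17rd -0.03 (adjusted p = 0.833). All 5 receptor genes were tested, with a median log2 fold change of -0.03. In edgeR 0 of them passed, 0 had an unadjusted p under 0.05, and 0 passed in DESeq2.

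**Figure D2:**
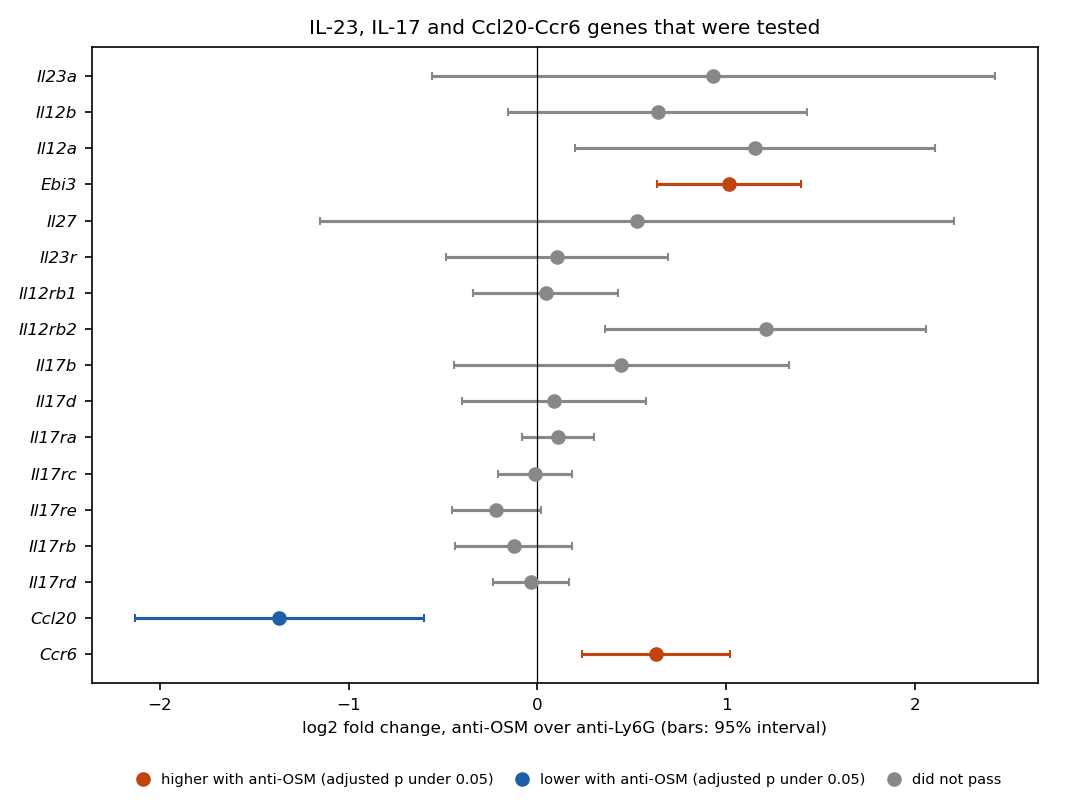
Log2 fold change of anti-OSM over anti-Ly6G (horizontal axis) with its 95% interval for the tested IL-23, IL-17 and Ccl20-Ccr6 genes (rows), coloured by edgeR's call. The receptor genes Il17ra and Il17rc sit close to 0 with short intervals, Ccl20 lies at -1.37 and Ccr6 at 0.63, and the intervals of the low cytokine genes are wide.

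Genes that act inside the cell below the IL-17 receptors showed little difference. Of 20 adaptors and regulators, 0 were higher, 1 was lower and 19 did not pass, where 12.1% of all tested genes passed. Their median log2 fold change was 0.03. Traf3ip2, which encodes the adaptor Act1 and was named after its values were seen, was at 22.2, 24.4 and 22.0 TPM under anti-OSM against 22.6, 26.0 and 23.1 under anti-Ly6G (-0.03, adjusted p = 0.860). The gene that passed was Cebpb, a transcription factor gene, at 52.4, 42.6 and 44.6 against 58.1, 56.8 and 61.0 TPM (-0.31, SE 0.09, adjusted p = 0.0490). Its call was lost when any 1 of the 6 libraries was left out, with a non-robust fit, with upper quartile scaling and with limma. Cebpd (0.24, adjusted p = 0.202), Elavl1 (-0.12, adjusted p = 0.208) and Ikbkg (0.10, adjusted p = 0.306) did not pass.

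Among 26 genes that IL-17 can induce in epithelial and stromal cells, Ccl20 included, 0 were higher, 5 were lower and 21 did not pass. Their median log2 fold change was -0.73, and the counts are read against the 12.1% of all tested genes that passed. This list was chosen with earlier results of these libraries known, and most of its genes also answer to other inflammatory signals, so it is not independent evidence of a direction. Besides Ccl20, the genes called lower were Ptgs2 (inducible cyclooxygenase, -2.73, adjusted p = 0.00107), Il24 (-2.99, adjusted p = 0.00272), Mmp13 (a collagenase, -2.74, adjusted p = 0.00706) and the neutrophil chemokine gene Cxcl3, at 1.73, 1.88 and 3.00 TPM against 5.76, 5.75 and 4.66 (-1.25, adjusted p = 0.0158). Antimicrobial genes of the list that were named after their values were seen did not pass: Defb4 was at 11.5, 15.7 and 15.5 TPM against 39.2, 18.9 and 17.8 (-0.81, adjusted p = 0.160), Lcn2 had -0.47 (adjusted p = 0.0715), S100a8 -0.10 (adjusted p = 0.886) and S100a9 0.04 (adjusted p = 0.967). The regulators Nfkbiz (0.06, adjusted p = 0.863) and Zc3h12a (0.04, adjusted p = 0.915), also named afterwards, did not pass. Anti-Ly6G replicate 1, the highest library for Ccl20, was also the highest for Defb4. The count of lower genes was 3 without anti-OSM replicate 1 or 2, 8 without anti-Ly6G replicate 2 and 9 in DESeq2.

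Markers of cells that can carry CCR6 were counted in the same test, and the counts are read against the 12.1% of all tested genes that passed. In bulk skin, fewer cells of a type and less RNA per cell cannot be told apart. Of 16 tested markers of type 17 lymphocytes, 6 were higher, 1 was lower and 9 did not pass, with a median log2 fold change of 0.30. The higher genes were Ccr6, Ahr (0.44, adjusted p = 0.0108), Irf4 (0.50, adjusted p = 0.0151), 5830411N06Rik, also called Scart2 (0.71, adjusted p = 0.0334), Maf (0.32, adjusted p = 0.0364) and, named after its values were seen, Rora (0.39, adjusted p = 0.0448). The lower gene was Zbtb16 (-0.45, adjusted p = 0.0485), also named afterwards, a call lost with a non-robust fit, with limma and when any 1 library other than anti-Ly6G replicate 3 was left out. Ahr, Irf4, Maf and Rora are also expressed by other immune or skin cells, and the summed level of all 20 listed markers overlapped between groups, at 447 to 474 TPM under anti-OSM against 403 to 454 under anti-Ly6G.

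Of the markers of gamma delta T cells in this list, 5830411N06Rik was higher, as given above, and others overlapped between the groups. Cd163l1, a marker of IL-17-producing gamma delta T cells, had 0.04 (adjusted p = 0.913), and the gamma delta T cell receptor gene Trdc -0.04 (adjusted p = 0.954), at 26.6, 9.20 and 21.4 against 17.1, 22.1 and 20.5 TPM. These 2 were named after their values were seen. Il17a was at 0 in every library. The number of higher type 17 markers fell to 2 when anti-OSM replicate 1, anti-OSM replicate 2 or anti-Ly6G replicate 1 was left out, to 1 for anti-OSM replicate 3, to 3 for anti-Ly6G replicate 2 and to 3 with limma.

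Markers of dendritic and Langerhans cells were higher in 7 of 12 cases and lower in 0, with a median log2 fold change of 0.44. They include Mgl2 (0.83, adjusted p = 0.00603), Cd209a (1.11, adjusted p = 0.00743), the Langerhans cell gene Cd207 (0.40, adjusted p = 0.0173) and Xcr1 (1.34, adjusted p = 0.0224). Their summed level was 1492 to 1867 TPM under anti-OSM against 1044 to 1311 under anti-Ly6G. In a ratio chosen, like the other ratios to markers, after the values were seen, Ccr6 per 1000 TPM of these markers was at 2.25, 2.30 and 2.99 TPM against 2.39, 1.96 and 2.19, so that the groups overlapped (exact two-sided permutation p = 0.4). The number of higher markers fell to 4 when anti-OSM replicate 1 was left out, to 2 for anti-OSM replicate 2 or 3, to 3 for anti-Ly6G replicate 1 or 2 and to 4 with limma.

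Some B cell and T cell markers were also higher with anti-OSM. Of 7 tested B cell markers 2 were higher and 0 lower: Cd79b (1.52, adjusted p = 0.00599) and the immunoglobulin heavy chain gene Ighm (1.24, adjusted p = 0.00723). The summed level of the 9 listed was 51.3 to 66.4 TPM against 21.7 to 32.0, most of it Ighm, while the defining genes Ms4a1 and Pax5, named after their values were seen, had 37 and 34 counts over all 6 libraries and were not tested. Ms4a1 had 0, 3 and 6 counts under anti-OSM, against 12, 6 and 10 under anti-Ly6G, so the groups met at 6. Of 14 T cell markers 2 were higher and 0 lower, a share near that of all tested genes: Trac (0.61, adjusted p = 0.0213) and Cd4 (1.16, adjusted p = 0.0252), with summed levels of 221 to 242 TPM against 181 to 214. The number of higher T cell markers was 7 when anti-Ly6G replicate 3 was left out, 0 when any 1 of the other libraries was, and 5 in DESeq2. Per 100 TPM of T cell markers, Ccr6 was at 1.41, 1.94 and 1.99 TPM against 1.33, 1.21 and 1.34, and per 100 TPM of B cell markers it was at 6.11, 8.37 and 7.25 against 11.5, 9.88 and 8.95. The groups did not overlap in either ratio, with higher values for anti-OSM in the first and lower values in the second (exact two-sided permutation p = 0.1 for each, the smallest possible). The part that cell numbers have in the Ccr6 difference was not tested.

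Beside the difference in Ccl20, which keratinocytes make, 1 of 12 keratinocyte markers was higher with anti-OSM, 2 were lower and 9 did not pass. Their median log2 fold change was -0.11. The number higher was 0 with no filter on low counts and when any 1 library other than anti-Ly6G replicate 3 was left out, and the number lower was 1 when any 1 anti-OSM library or anti-Ly6G replicate 1 was left out. The lower ones were Dsg3, a desmosomal cadherin gene (-0.84, adjusted p = 0.00121), and Krt14 (-0.55, adjusted p = 0.0271), and the higher one was Ivl, a gene of the cornified envelope (0.67, adjusted p = 0.0443). Their summed level was 21938 to 25730 TPM under anti-OSM against 26466 to 33377 under anti-Ly6G. Per 1000 TPM of these markers, Ccl20 was at 0.256, 0.270 and 0.296 TPM with anti-OSM against 0.902, 0.351 and 0.528, with no overlap (exact two-sided permutation p = 0.1, the smallest possible). The ranges of Ccl20 and of the marker sums fix this separation whichever libraries are combined, so this p is no further support. Of 11 tested markers of neutrophils, the cells that anti-Ly6G is directed against, 0 were higher and 2 lower, Padi4 (-1.30, adjusted p = 0.0304) and Trem1 (-1.03, adjusted p = 0.0465). The calls among keratinocyte and neutrophil markers are read against the 12.1% of all tested genes that passed. Log2 fold changes of the neutrophil markers went both ways, from -1.30 to 2.06, with a median of -0.10. The summed level of the 15 listed overlapped, at 349 to 499 TPM against 315 to 499. The highest means of this list over all 6 libraries were those of S100a9 (167 TPM) and S100a8 (150 TPM). Both are also on the list of genes that IL-17 can induce in epithelial and stromal cells. The sum is therefore not specific to neutrophils, and its overlap does not show that neutrophil content was alike. When anti-Ly6G replicate 3 was left out, 1 neutrophil marker was higher and 1 lower, and when any 1 of the other libraries was, 0 passed in edgeR. With no filter on low counts 1 was lower, and in DESeq2 and with a replicate block 1 was higher and 2 were lower. The part of keratinocyte and neutrophil content in the Ccl20 difference was not tested.

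**Figure D3:**
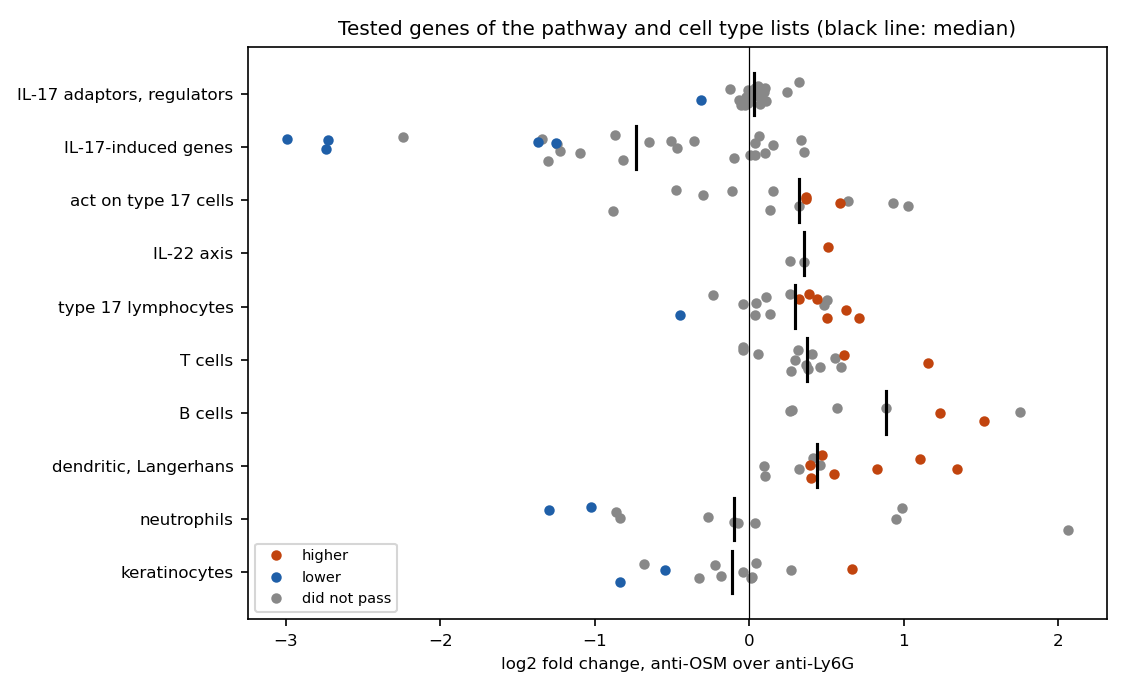
Log2 fold change of anti-OSM over anti-Ly6G (horizontal axis) for every tested gene of 10 pathway and cell type lists (rows, with vertical scatter added only to separate points), coloured by edgeR's call, with the list's median as a black line. The IL-17-induced genes reach from -2.99 to 0.35 with a median of -0.73, whereas the adaptors and regulators cluster around 0.03.

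The genes whose levels followed each member most closely over the 6 libraries were sought by Pearson correlation of log2 CPM among tested genes with a mean of at least 1 CPM, as a description, since libraries of the 2 groups are pooled and depth and tissue makeup are shared. For Ccr6, 176 of 14454 genes had r above 0.95. The closest were Phax (r = 0.993), the IL-12 receptor gene Il12rb2 (0.992) and the interferon gamma receptor gene Ifngr2 (0.992). For Ccl20, 128 genes had r above 0.95, and the closest were Ndufa8 (0.998), Metap1 (0.997) and Wdr55 (0.993). These 3 differed far less than Ccl20 itself, by -0.18 to -0.26 on the log2 scale. The closest genes were Nras (0.990), Dnajc18 (0.989) and BC052040 (0.989) for Il17ra and Pheta1 (0.985), Inafm1 (0.983) and Cdkal1 (0.978) for Il17rc. Those given for Il23a are Cpox (0.977) and Ciao1 (0.974), and those for Il23r were Swsap1 (0.991), Arfip2 (0.988) and Magi2 (0.983). With 6 libraries, high correlations are found for many genes of the table.

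**Figure D4:**
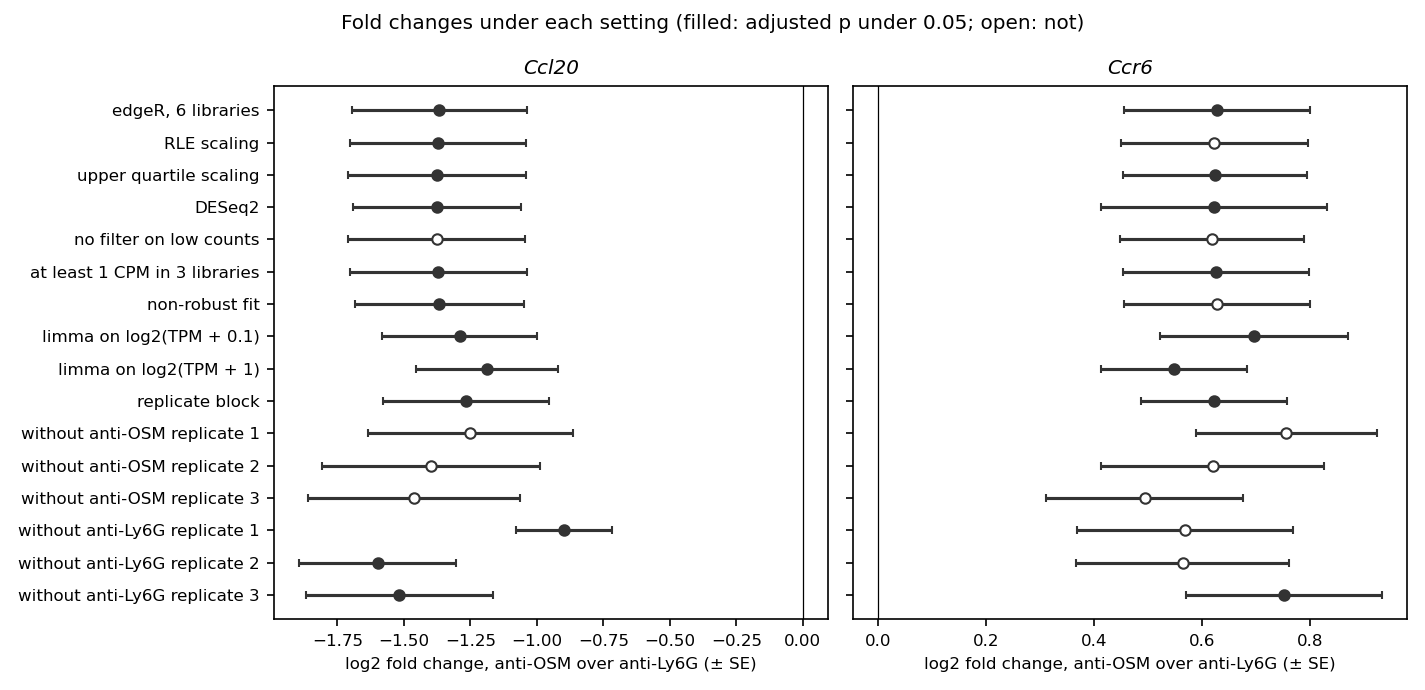
Log2 fold change (horizontal axes, ± SE) of Ccl20 and Ccr6 for the main test (top row) and each alternative setting (other rows); filled points have an adjusted p under 0.05. Ccl20 stays between -1.60 and -0.90 and Ccr6 between 0.49 and 0.76, while part of the points are open.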

How the data were processed

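Each of the 6 ear skin libraries has its own columns in the deposited table, with no pooling: per the file headers these hold read counts, FPKM and TPM by gene. Deposited counts are whole; for the counting tool and its strand setting, nothing is given in the sources used here. TPM values, as the authors scaled them, give levels between genes; the deposited FPKM values were not used further. Tools named without a role in the submitters' processing notes include StringTie 2.1.3b, HISAT2 2.1.0 and Trimmomatic 0.38, and mm10 is among the builds. Positions and start regions are from RefSeq on GRCm38.p6, and no exon of a member overlaps an exon of another gene in GENCODE M21.

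Counts were tested with edgeR 4.0.16 in R 4.3.3 (filterByExpr, TMM, robust quasi-likelihood fit, two-sided F-test, no covariate), and p-values were adjusted over all 19915 tested genes. The SE is the absolute fold change divided by the root of F. Ratios were tested by exact permutation. On simulated data the test recovered 52% of 1.5-fold, 86% of 2-fold and 96% of 4-fold changes, and 5.71% of its calls were false. Genes with the lowest counts were not among those changed. Alternatives were other scalings and filters, a non-robust fit, DESeq2 1.42.0, limma 3.58.1 on log2(TPM + 0.1) and log2(TPM + 1), a replicate block and leaving out each library. No pair of replicates agreed within sampling noise (lowest chi-square per gene 26.2). Members and lists were chosen with earlier results of these data known. Besides members, the genes named are up to 4 per list with the smallest p and the 3 most correlated with each tested member; others are marked as named afterwards. Some genes that this rule or the lists include are not reported here.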

Additional observations from a re-analysis of the deposited data

How the results depend on the processing

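The call that Ccr6 was higher, 1 member, became 0 with relative log expression scaling, with no filter on low counts and with a non-robust fit, and the call that Ccl20 was lower, also 1, became 0 with no filter on low counts. Leaving out 1 library gave 0 to 1 member higher and 0 to 1 lower. Direction reversed for members that had not passed: Il23a to -0.0093 without anti-OSM replicate 3, Il23r to -0.013 without anti-Ly6G replicate 3, and Il17rc to 0.065 without anti-OSM replicate 1 and 0.016 without anti-Ly6G replicate 2. Over the leave-one-out fits these genes ranged from -0.0093 to 1.39, -0.013 to 0.23 and -0.080 to 0.065. Of the 150 distinct genes of the other lists 138 were tested, and 23 were higher and 11 lower in the main test. Among all tested genes 5.81% were higher and 6.27% lower. The lists were chosen with earlier results known, so these counts are not independent evidence. With limma, 14 of the list genes were higher at either pseudocount, with DESeq2 18 were lower, and leaving out 1 library gave 6 to 31 higher and 4 to 10 lower. The causes were not tested, except that leaving out a library leaves fewer samples. The log2 ratios of mean TPM of the 8 members moved by less than the spread between single libraries with CPM in place of TPM and without each library (56 of 56 values). Leaving out a library can hardly move a group mean by more than that spread, so this count is not evidence of stability. The ratio of Il23a, for example, went from 0.94 to -0.04 without anti-OSM replicate 3 and is counted among the 56.

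The deviations of same-numbered libraries had r = 0.012, 0.037 and 0.12, of which 1 is above 0.1, so the numbers were not taken to pair the samples. Anti-OSM replicates 2 and 3 correlated best with the anti-Ly6G library of their own number, and anti-OSM replicate 1 with anti-Ly6G replicate 2. With the replicate block, Ccl20 had -1.27 (edgeR adjusted p = 0.0463) and Ccr6 0.62 (0.0260), 1 member was higher and 1 lower, and 28 list genes were higher and 15 lower, with 2 higher in the IL-23 and IL-12 family and 5 among T cell markers. DESeq2 gave no adjusted p for Il23a, and the filter of 1 CPM in 3 libraries left no value for Il23a and Il23r. Depth limits Il17c, Il17f, Il23a and Il23r.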

Other observations

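Of 13 tested genes for cytokines and receptors that act on type 17 lymphocytes, 3 were higher and 0 lower: Tgfb1 (0.37, adjusted p = 0.0265), Il6ra (0.37, adjusted p = 0.0433) and Il7 (0.59, adjusted p = 0.0461, all by edgeR), and Tnfsf15 had 1.03 (adjusted p = 0.0879). That number was 0 when any 1 anti-OSM library or anti-Ly6G replicate 1 was left out, 1 for anti-Ly6G replicate 2, 1 with no filter on low counts and 0 with limma. In the IL-22 group, Il10rb was higher, at 60.7, 53.9 and 64.8 TPM against 35.6, 41.2 and 51.4 (0.51, adjusted p = 0.0403), a call lost with limma and when any 1 library other than anti-Ly6G replicate 3 was left out. Il22ra1 (0.26, adjusted p = 0.227) and Il22ra2 (0.36, adjusted p = 0.256) did not pass.

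Cytokine genes of this pathway with too few counts for a test, named after their values were seen, were Il22, with read counts of 0, 10 and 0 under anti-OSM against 4, 5 and 3 under anti-Ly6G, Il25, with 0, 0 and 0 against 6, 0 and 5, and Il21, with 5 counts in anti-OSM replicate 2 and 0 in the other libraries. Il22 and Il21 had their highest count in the same library, anti-OSM replicate 2.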
